A study of Mus musculus with 15 samples.

Results

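The J-domain proteins of the DNAJ (HSP40) family were followed at the transcript level in NIH3T3 mouse fibroblasts, an established embryonic line, after a single unfolded protein appeared in the cells. The genes were taken by symbol: every symbol made of Dnaja, Dnajb or Dnajc and a number, with or without a final letter, was a member, and Dnajb1, Dnajb9 and Dnajc3 were excluded. Of the 20207 genes in the tables, 45 matched and 42 remained, with 4 in class A, 11 in class B and 27 in class C. Of these, 32 had at least 1 count in every sample and were tested, comprising 4 of class A, 6 of class B and 22 of class C.

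All samples came from cells that stably carried DD-sfGFP, in which a destabilizing domain (DD) of FKBP, folded while the ligand Shield-1 (S1) is bound, is joined to superfolder GFP. According to the study's methods, the construct was integrated with a piggyBac transposon and the cells were sorted for high GFP and grown in S1 until the experiment. The control group (cont, 5 samples, time 0) kept S1, and in the DD 45min (3 samples), DD 135min (3 samples) and DD 405min (4 samples) groups S1 had been withdrawn for 45, 135 or 405 min by the addition of a purified FKBP protein. The labels do not say whether replicates were separate cultures, so the p-values measure the spread between these samples, which may be technical.

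J-domain proteins work with the HSP70 chaperones. The J domain stimulates ATP hydrolysis by HSP70, which closes HSP70 on a client protein, and the rest of each J protein decides which clients and which cell compartment HSP70 serves. Class A proteins share the domain layout of bacterial DnaJ with a zinc-finger region, class B proteins have the J domain and a glycine- and phenylalanine-rich stretch, and class C proteins share the J domain and little else, with roles that range from protein import into mitochondria to splicing.

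Total counts ranged from 6652539 to 30258404 per sample. The samples formed a pair of library sets that differed in how expression followed the GC content of transcripts. Set 2 held control replicate 2, DD 45min replicate 3 and DD 405min replicates 1, 2 and 4, and set 1 held the other 10 samples, among them all DD 135min samples. The labels do not name these sets. The slope of log2 CPM (counts scaled to a common library size) on exonic GC was taken relative to the mean of all samples. It ran from 0.319 to 0.737 per 10 percentage points in set 2 and from -0.719 to 0.031 in set 1. Between the sets 5146 of the 10276 tested genes differed. The sets were divided at a slope of 0.15 in these same counts, so this number cannot test whether the libraries were made as separate sets. The 6 fibroblast markers checked (Col1a1, Col1a2, Vim, Fn1, Pdgfrb and Thy1) summed to between 10295 and 16046 CPM in every sample, and 6 markers of other cell types (Ptprc, Epcam, Cdh1, Pecam1, Alb and Tubb3) summed to at most 10.7 CPM. Of the fibroblast markers, Pdgfrb was lower at 135 min (-0.92 ± 0.21 on the log2 scale), and Pdgfrb (-0.70 ± 0.19), Vim (-0.61 ± 0.15) and Col1a2 (-0.39 ± 0.13) were lower at 405 min, and the part of this in the results for the DNAJ genes was not tested.

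In control cells the family spanned a wide range of levels. Levels of different genes were compared as RPKM, which divides reads by gene length and depth, and are given as the median of the 5 control samples. The highest were Dnajc2, a ribosome-bound J protein, at 121.2 RPKM (61.7 to 148.2), and Dnajc8, a spliceosome-associated protein, at 109.4 RPKM (52.1 to 134.1). Their ranges overlapped and did not separate them. The main cytosolic class A partners of HSP70, Dnaja2 and Dnaja1, followed Dnajc19 with 64.2 RPKM (23.7 to 73.3) and 63.6 RPKM (40.7 to 71.6), and Dnajb6, a class B protein that keeps aggregation-prone proteins soluble, was at 60.1 RPKM (31.4 to 69.8). These neighbours also overlapped. At the low end of the tested genes were Dnaja4 at 0.693 RPKM (0.40 to 1.24), Dnajb2 at 0.687 RPKM (0.551 to 2.33) and Dnajc28 at 0.288 RPKM (0.226 to 0.841). The RPKM of control replicate 3 was lowered for every gene, because its RPKM rested on a denominator 1.75 times that expected from its summed counts, against 0.89 to 1.24 times in the other 14 samples. RPKM was therefore used here to rank genes and not to compare samples.

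**Figure D1:**
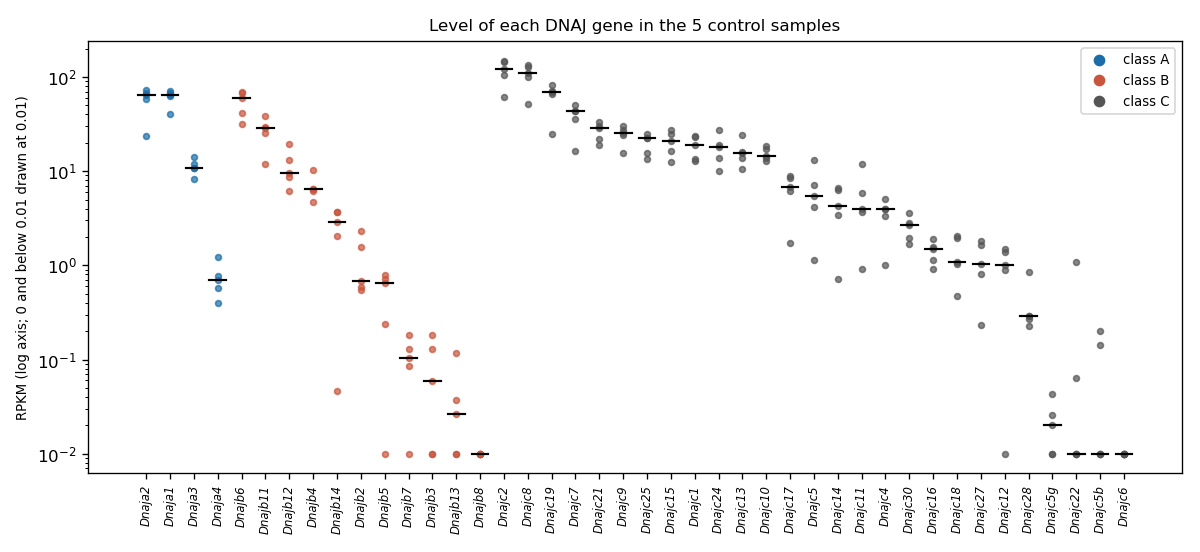
Level of each of the 42 DNAJ genes in the 5 control samples, in RPKM on a log axis, grouped by class, with 1 point per sample and a bar at the median (values of 0 or below 0.01 are drawn at 0.01). Class A runs from 64.2 (Dnaja2) to 0.693 RPKM (Dnaja4), and Dnajb8, Dnajc22, Dnajc5b and Dnajc6 have a median of 0.

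The remaining 10 genes had 0 counts in at least 1 sample and were not tested. Dnajb5, a cytosolic class B protein, reached at most 85 counts, Dnajc12 60, Dnajc22 37, Dnajb7 27 and Dnajc6, the neuronal form of the clathrin-uncoating protein auxilin, 19. Dnajb3, Dnajc5b and Dnajc5g reached at most 6 counts each, Dnajb13 at most 5 and Dnajb8 at most 1, and several of these genes are known mainly from testis. Dnajb8 was at 0 counts in 12 of the 15 samples, and Dnajb5 and Dnajc12 were at 0 in 1 sample each.

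Promoter sequence is shown for 4 members, because the results below turn on Dnajb2, Dnaja4 and Dnaja3 and because Dnajb6 alone carried a triple motif. RefSeq windows from 250 bases before to 50 bases after a transcription start (GRCm38.p6) were found for 34 of the 42 members, as 46 windows. Inverted pairs of the heat shock element unit, GAANNTTC or TTCNNGAA on the strand as read, which covers both strands, occurred in 15.1% of all 32851 windows and in 8 of the 46 DNAJ windows (Dnaja1, Dnaja4, Dnajb4, Dnajb6, Dnajc10, Dnajc27 and Dnajc5g). A triple unit, GAANNTTCNNGAA or TTCNNGAANNTTC, which contains the pair, occurred in 0.603% of all windows and in 2 overlapping windows of Dnajb6. The core of the antioxidant response element, TGACNNNGC or its reverse complement GCNNNGTCA, occurred in 12.4% of all windows and in 8 DNAJ windows of 6 members (Dnaja2, Dnajb2, Dnajc14, Dnajc17, Dnajc27 and Dnajc28). A match is a string of letters in a window and was not measured as a bound site. The 150 bases upstream of a RefSeq start follow, with the motif in capitals, for Dnajb2 (chr1:75236273-75236422, plus strand, antioxidant core beginning 97 bases upstream), Dnaja4 (chr9:54699409-54699558, plus strand, pairs beginning 90 and 52 bases upstream), Dnajb6 (chr5:29735748-29735897, plus strand, triple unit beginning 46 bases upstream) and Dnaja3 (chr16:4683920-4684069, plus strand, none of these motifs).
Dnajb2: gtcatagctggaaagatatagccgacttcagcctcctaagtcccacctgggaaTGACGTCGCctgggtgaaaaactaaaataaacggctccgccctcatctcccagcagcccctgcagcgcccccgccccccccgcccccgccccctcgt
Dnaja4: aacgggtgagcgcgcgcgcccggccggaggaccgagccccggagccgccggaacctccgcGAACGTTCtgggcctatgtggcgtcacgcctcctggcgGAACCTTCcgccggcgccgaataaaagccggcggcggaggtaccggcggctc
Dnajb6: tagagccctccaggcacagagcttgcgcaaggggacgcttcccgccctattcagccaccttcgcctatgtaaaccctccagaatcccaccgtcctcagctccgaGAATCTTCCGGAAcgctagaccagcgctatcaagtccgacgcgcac
Dnaja3: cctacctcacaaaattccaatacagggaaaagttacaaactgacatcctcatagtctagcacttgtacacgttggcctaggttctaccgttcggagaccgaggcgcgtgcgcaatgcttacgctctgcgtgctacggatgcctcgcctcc

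At 45 min no DNAJ gene passed the test. Of the 32 tested genes, 12 had a positive and 20 a negative log2 fold change against control, the lowest adjusted p in edgeR's quasi-likelihood test was 0.698, and DESeq2 also called 0 members. At an unadjusted p under 0.05 there was 1 member on each side, Dnajc4 with a log2 fold change of 0.60 and Dnajc24 with -1.06. The background was the same, since 0% of the 10276 genes were called higher and 0% lower. The median log2 fold change was -0.09 over the members and 0.02 over all tested genes.

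At 135 min Dnaja3 fell, and no other member passed the test in either direction. Dnaja3, known as Tid1, is the class A protein of mitochondria, where it serves mitochondrial HSP70. Its gene lies on chromosome 16 at 4684070 to 4707690 of mm9. Its level was 59.3, 65.3, 84.4, 58.5 and 53.1 CPM in the 5 control samples, 46.1, 50.4 and 56.8 CPM at 45 min, 34.5, 35.5 and 41.3 CPM at 135 min, and 55.3, 50.7, 43.2 and 57.1 CPM at 405 min. The 3 samples at 135 min lay below every other sample of the series. The log2 fold change was -0.79 ± 0.17 (SE) with an adjusted p of 0.0341 in edgeR, and at 405 min it was -0.31 ± 0.15 with an adjusted p of 0.14. Across all genes 0.564% were called higher and 0.895% lower at 135 min, against 0 and 1 of the 32 tested members. In bulk RNA, fewer cells of a type and less RNA per cell cannot be told apart. Within set 1, which held all DD 135min samples and 4 of the controls, the value was -0.78 ± 0.18 and passed the test. The call was lost without control replicate 1 or 4, DD 45min replicate 1, DD 405min replicate 2 or 4 or any 1 of the 3 samples at 135 min, with values from -0.87 to -0.74.

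The cytosolic HSP70 partners in protein refolding moved less. All 7 tested genes of this group (Dnaja1, Dnaja2, Dnaja4, Dnajb2, Dnajb4, Dnajb6 and Dnajc7) had a positive log2 fold change at 135 min, between 0.10 and 0.65 with a median of 0.32, and none passed the test, the lowest adjusted p being 0.36 in edgeR. Over all tested genes 4463 of 10276 were positive, with a median of -0.06. An unadjusted p under 0.05 was reached by Dnaja2 and Dnaja4, against 471 of the 10276 on the higher side, and DESeq2 called 0 of the 7 refolding partners. The 7 J-domain genes outside the family definition were also all positive at 135 min. Dnaja2 was at 416.1, 303.6, 272.4, 394.4 and 370.4 CPM in the controls and at 453.3, 462.1 and 477.4 CPM at 135 min. These samples lay above all controls, with a log2 fold change of 0.40 ± 0.18 and an adjusted p of 0.397 in edgeR. Dnaja1, with 457.2, 249.3, 836.3, 515.2 and 399.2 CPM in the controls and 587.1, 633.8 and 618.5 CPM at 135 min, overlapped because control replicate 3 was higher than any later sample. Its log2 fold change was 0.32 ± 0.28.

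Dnajc9, a nuclear J protein that hands histones to HSP70, was the other gene above its controls at 135 min. It stood at 87.4, 71.6, 101.1, 94.1 and 86.3 CPM in the controls, at 131.8, 127.2 and 136.5 CPM at 135 min and at 78.1, 89.0, 84.2 and 71.0 CPM at 405 min. No sample outside the 135 min group exceeded 101.1 CPM. The log2 fold change at 135 min was 0.58 ± 0.15 with an adjusted p of 0.0757 in edgeR, just short of the threshold, and DESeq2, a GC offset, a set term and set 1 alone each took it past the threshold. Groups that did not overlap with control at 135 min were thus seen for 2 members on the higher side (Dnaja2 and Dnajc9) and 2 on the lower side (Dnaja3 and Dnajc30), against 4.79% and 4.75% of all tested genes. Dnajc30, a mitochondrial protein whose gene overlaps Wbscr22 on the opposite strand, had a log2 fold change of -1.01 ± 0.34 and an adjusted p of 0.205 in edgeR.

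**Figure D2:**
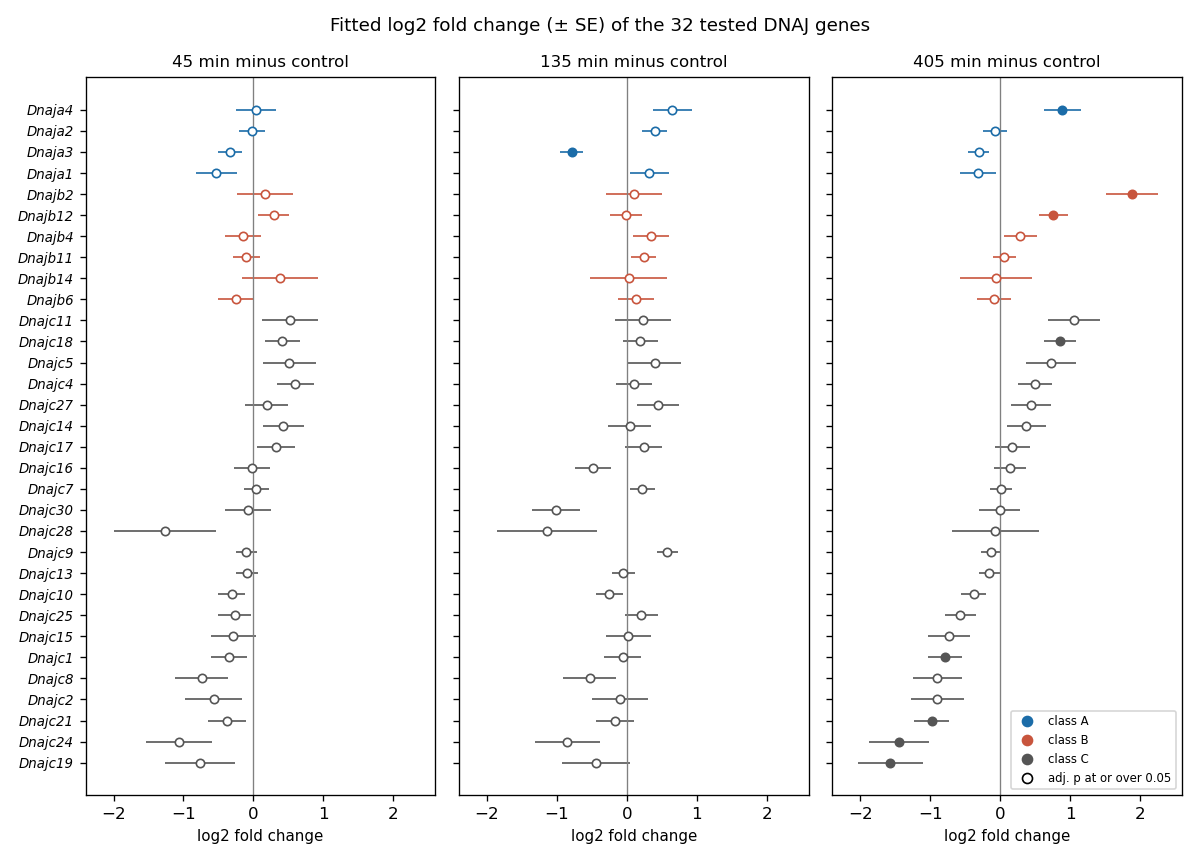
Fitted log2 fold change against control (± SE, edgeR) of the 32 tested DNAJ genes at 45, 135 and 405 min, ordered by class and by the value at 405 min, with filled points for an adjusted p under 0.05. No point is filled at 45 min, only Dnaja3 (-0.79) at 135 min, and at 405 min 4 higher genes led by Dnajb2 (1.88) and 4 lower genes led by Dnajc19 (-1.57).

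At 405 min, 8 of the 32 tested members passed the test, 4 in each direction. Dnajb2, Dnaja4, Dnajb12 and Dnajc18 rose by between 0.76 and 1.88 on the log2 scale, and Dnajc1, Dnajc19, Dnajc21 and Dnajc24 fell by between 0.79 and 1.57. Across all tested genes 9.99% were called higher and 13.4% lower, so the share of members called in each direction lay near this background. By class, 1 of 4 genes of class A and 2 of 6 of class B rose, and in class C 1 of 22 rose and 4 fell. The median log2 fold change was -0.19 in class A, 0.18 in class B and -0.10 in class C, against 0 over all tested genes. Groups that did not overlap with control were seen for 3 members on the higher side (Dnaja4, Dnajb2 and Dnajc18) and for 0 on the lower side, against 6.75% and 6.43% of all tested genes. Without control replicate 2 there were 6 higher and 9 lower members, and without control replicate 3 there were 4 and 2. Without DD 405min replicate 1 or 4 there were only 1 and 0. Over all tested genes the calls also varied, since leaving out 1 sample gave 417 to 2518 higher and 528 to 2461 lower genes.

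Dnajb2 had the largest change of the family. Its protein, known as HSJ1, carries ubiquitin-interacting motifs and passes HSP70 clients to the proteasome. The gene lies on chromosome 1 at 75232998 to 75242265 of mm9. Its level was 2.39, 8.02, 4.16, 2.77 and 5.13 CPM in the controls, 4.99, 3.20 and 7.0 CPM at 45 min, 3.70, 4.21 and 6.57 CPM at 135 min and 21.8, 14.8, 10.6 and 19.4 CPM at 405 min. The lowest sample at 405 min was above the highest of the other 11 samples, which was control replicate 2 of set 2. In counts this was 24 to 161 reads in the controls and 110 to 354 reads at 405 min. The log2 fold change was 1.88 ± 0.37, or 3.67-fold, with an adjusted p of 0.00351 in edgeR, and the call held without any 1 of the 15 libraries, with values from 1.71 to 2.21. At 45 and 135 min its log2 fold change was 0.17 ± 0.40 and 0.10 ± 0.40. The window printed above holds the antioxidant core, as do those of 5 other members.

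Dnaja4, a cytosolic class A partner of HSP70, was the lowest-expressed class A gene and the class A gene that rose. It was at 3.77, 3.84, 4.85, 5.0 and 6.59 CPM in the controls, at 6.01, 2.66 and 6.05 CPM at 45 min, at 6.37, 8.05 and 8.24 CPM at 135 min and at 9.21, 8.64, 8.26 and 9.57 CPM at 405 min. All samples at 405 min were above all controls, and the 135 min samples were within or above the control range. The log2 fold change was 0.65 ± 0.28 at 135 min with an adjusted p of 0.36 and 0.89 ± 0.26 at 405 min with an adjusted p of 0.0268 in edgeR. Its gene (chromosome 9, 54547366 to 54564119 of mm9) overlaps Wdr61 on the opposite strand. The strand of counting was not given in the sources used here, so reads of the overlap could belong to either gene. The call was lost without control replicate 1 or 4 or without DD 405min replicate 1, 2 or 4, with values from 0.81 to 0.91.

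Dnajb12 and Dnajc18 are related J proteins of the endoplasmic reticulum (ER) membrane whose J domains face the cytosol, and Dnajb12 is known for its part in ER-associated degradation. Dnajb12 was at 36.5, 62.8, 44.6, 33.3 and 41.7 CPM in the controls and at 89.2, 77.3, 50.3 and 79.2 CPM at 405 min. DD 405min replicate 3 lay within the control range, and the other 3 samples lay above it. Its log2 fold change was 0.76 ± 0.21 with an adjusted p of 0.0204 in edgeR. Dnajc18 was at 12.2, 19.8, 9.88, 11.5 and 18.2 CPM in the controls and at 26.8, 28.0, 21.5 and 27.3 CPM at 405 min, with no overlap, and its log2 fold change was 0.85 ± 0.23 with an adjusted p of 0.0189 in edgeR. At 135 min the values were -0.01 ± 0.23 and 0.19 ± 0.25. Dnajb14, the closest relative of Dnajb12, was at -0.06 ± 0.51 at 405 min, with only 2 counts in control replicate 3, which leaves its change undecided. The call of Dnajb12 was lost without control replicate 1 or 4 or DD 405min replicate 1, 2 or 4 (0.66 to 0.74), and that of Dnajc18 without DD 405min replicate 1, 2 or 4 (0.81 to 0.83).

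The 4 members that fell were all of class C and had different roles. Dnajc19 belongs to the import motor of the mitochondrial inner membrane, Dnajc21 acts in the maturation of the large ribosomal subunit, Dnajc24 in the synthesis of diphthamide on elongation factor eEF2, and Dnajc1 is a J protein of the ER membrane whose J domain faces the lumen.

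Dnajc19 was at 98.0, 30.1, 189.3, 118.3 and 76.3 CPM in the controls and at 19.9, 28.2, 64.3 and 25.2 CPM at 405 min. Control replicate 2 stood with the 405 min samples, and DD 405min replicate 3 stood close to the controls. The log2 fold change was -1.57 ± 0.47 with an adjusted p of 0.0277 in edgeR, and reads may be shared with a pseudogene, Dnajc19-ps. The call was lost without control replicate 3 or 4 or DD 405min replicate 1, 2 or 4, with values from -1.52 to -1.23.

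Dnajc21 was at 126.4, 72.0, 180.6, 146.4 and 110.9 CPM in the controls and at 45.6, 70.6, 86.7 and 55.3 CPM at 405 min, with DD 405min replicate 3 above control replicate 2. Its log2 fold change was -0.98 ± 0.25 with an adjusted p of 0.0161 in edgeR, lost without DD 405min replicate 1 (-0.84) or 4 (-0.91). Dnajc1 was at 72.3, 42.5, 97.6, 91.3 and 74.0 CPM in the controls and at 36.2, 45.6, 57.4 and 35.9 CPM at 405 min, overlapping at control replicate 2. Its log2 fold change was -0.79 ± 0.24 with an adjusted p of 0.0301 in edgeR, lost without control replicate 1, 3 or 4 or DD 405min replicate 1, 2 or 4 (-0.81 to -0.68).

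Dnajc24 was at 35.3, 21.9, 132.8, 49.2 and 37.9 CPM in the controls, at 30.0, 28.3 and 20.7 CPM at 45 min, at 26.2, 33.7 and 31.9 CPM at 135 min and at 11.8, 21.7, 29.7 and 17.4 CPM at 405 min. Control replicate 3 was more than any other sample by a wide margin, and the remaining controls overlapped with all later groups. For Dnajc24 the log2 fold change was -1.45 ± 0.43 with an adjusted p of 0.0281 in edgeR, and it was -0.84 without control replicate 3. The call was lost without DD 405min replicate 1, 2 or 4, with values from -1.49 to -1.27.

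**Figure D3:**
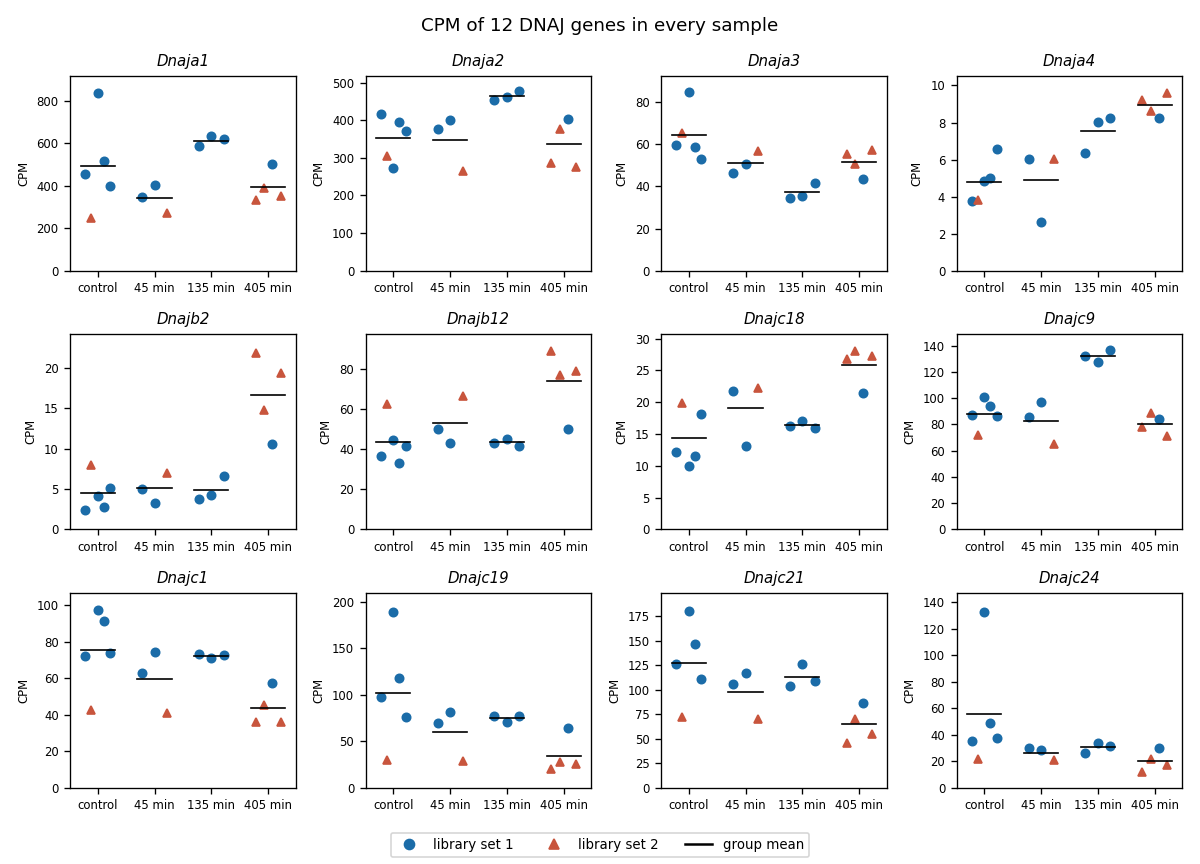
CPM of 12 DNAJ genes in all 15 samples by group, with circles for library set 1, triangles for set 2 and a bar at the group mean. Dnajb2 is between 10.6 and 21.8 CPM at 405 min and at most 8.02 CPM elsewhere, while for Dnajc19 and Dnajc1 the set 2 control (30.1 and 42.5 CPM) lies among the 405 min samples.

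Because 3 of the 4 samples at 405 min and only 1 of the 5 controls belonged to set 2, each call at 405 min was also computed with the sets taken into account. Dnajb2 had a log2 fold change of 1.42 ± 0.30 with the set as a term, 1.54 ± 0.51 in set 1 (4 controls against 1 sample), 1.23 ± 0.31 in set 2 (1 control against 3 samples) and 1.32 ± 0.25 with a GC offset. It passed the test in all of these except set 1 alone, and the adjusted p over all alternatives tried ran from 1.25e-05 to 0.159. With the set as a term Dnajb2 was the only member called at 405 min. Calls over all genes varied too: in settings other than leaving out 1 sample, 121 to 1438 genes were called higher and 96 to 1972 lower. In the fits within 1 set the lone sample was assumed to vary like the other groups.

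The other 3 genes that rose remained positive. Dnaja4 gave 0.86 ± 0.30 with the set as a term, 0.69 ± 0.48 in set 1, 1.26 ± 0.33 in set 2 and 0.63 ± 0.26 with a GC offset. It passed only in set 2, where the comparison rests on 1 control. Dnajc18 gave 0.62 ± 0.21, 0.71 ± 0.37, 0.48 ± 0.24 and 0.95 ± 0.25 and passed with the GC offset. Dnajb12 gave 0.41 ± 0.13, 0.36 ± 0.22, 0.40 ± 0.21 and 0.35 ± 0.13 and passed in none of these, so its value was about 0.4 once the sets were taken into account. The set 2 minus set 1 difference itself was 0.92 for Dnajb2, 0.64 for Dnajb12, 0.44 for Dnajc18 and 0.05 for Dnaja4 on the log2 scale.

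The genes that fell also differed between the sets in the same direction, by -1.61 for Dnajc19, -0.95 for Dnajc24, -0.76 for Dnajc1 and -0.75 for Dnajc21. With the set as a term their log2 fold changes were -0.67 ± 0.25, -0.88 ± 0.40, -0.34 ± 0.15 and -0.54 ± 0.18, and none passed the test. With a GC offset all 4 did, at -0.97 ± 0.27, -1.19 ± 0.36, -0.44 ± 0.14 and -0.56 ± 0.13. Within set 2, which rests on 1 control, the values were -0.29 ± 0.25, -0.35 ± 0.31, -0.10 ± 0.23 and -0.32 ± 0.24. In set 1 the 1 sample at 405 min lay below every control of that set for each gene. It was at 64.3 CPM against 76.3 to 189.3 CPM for Dnajc19 and at 29.7 against 35.3 to 132.8 CPM for Dnajc24. For Dnajc1 it was at 57.4 against 72.3 to 97.6 CPM, and for Dnajc21 at 86.7 against 110.9 to 180.6 CPM. Exonic GC was 38.6% in Dnajc19, 42.3% in Dnajc21, 44.0% in Dnajc1 and 45.9% in Dnajc24, against 47.5% in Dnajc18, 52.4% in Dnaja4, 54.8% in Dnajb12 and 60.9% in Dnajb2. The part of the sets in the calls at 405 min was not tested beyond these fits.

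**Figure D4:**
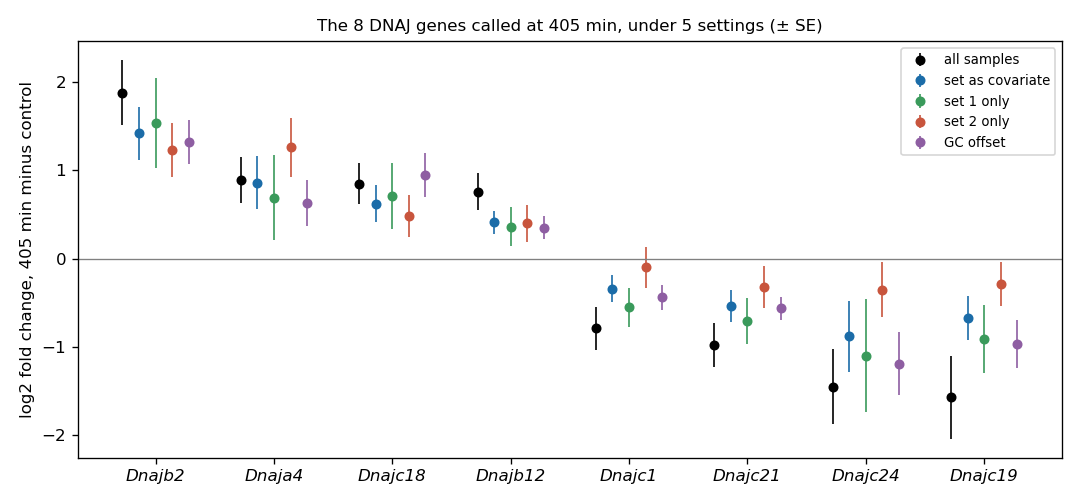
Log2 fold change of DD 405min minus control (± SE) of the 8 called DNAJ genes, fitted on all samples, with a term for library set, in each set alone and with a GC offset. All 40 values keep their sign, Dnajb2 stays between 1.23 and 1.88, and the values of the 4 lower genes are nearest to 0 within set 2 (-0.35 to -0.10).

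Dnajb4, a cytosolic class B partner of HSP70, had a larger value once the sets were taken into account. Its log2 fold change at 405 min was 0.29 ± 0.24 on all samples, 0.62 ± 0.21 with the set as a term, 0.70 ± 0.15 with a GC offset and 1.03 ± 0.24 within set 2. It passed with the GC offset, and the value within set 2, which also passed, rests on 1 control. Its mean was 39.2 CPM ± 14.9 (SD, n = 5) in the controls and 47.9 CPM ± 10.6 (SD, n = 4) at 405 min, and Dnajb4 was lower in set 2 than in set 1 by -0.56 on the log2 scale.

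By place in the cell, the J proteins of the ER numbered 8 tested genes, of which 2 rose and 1 fell at 405 min, with a median log2 fold change of 0. Across all tested genes 9.99% were called higher and 13.4% lower. With the set as a term 0 of the 8 were called. The lumenal partner of BiP, Dnajb11, was at 0.06, the disulfide reductase Dnajc10 at -0.38, Dnajc16 at 0.14 and Dnajc25 at -0.57. The library sets differed by -0.43 for Dnajb11, -0.32 for Dnajc10, 0.01 for Dnajc16 and -0.69 for Dnajc25. Of 7 mitochondrial genes Dnajc19 was the only one called, with a median of -0.07. The highest in that group was Dnajc11, a protein of the cristae-organizing complex, at 1.05 ± 0.37, which missed the threshold with an adjusted p of 0.0518 in edgeR, and Dnajc15, a relative of Dnajc19, was at -0.73 ± 0.30 with an adjusted p of 0.0857. Both differed between the library sets, by 1.03 for Dnajc11 and by -1.02 for Dnajc15. With the set as a term their values at 405 min were 0.56 ± 0.25 and -0.18 ± 0.16.

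Of 5 genes of the nucleus or ribosome, Dnajc21 fell, against 13.4% of all tested genes called lower, and the median was -0.90. The ribosome-bound Dnajc2 was at -0.90 ± 0.38 and the spliceosomal Dnajc8 at -0.90 ± 0.35, with adjusted p values of 0.0879 and 0.07 in edgeR. The library sets differed by -1.30 for Dnajc2 and -1.06 for Dnajc8, and with the set as a term their values at 405 min were -0.17 ± 0.21 and -0.24 ± 0.26. Control replicate 2 of set 2, with 232.1 CPM of Dnajc2 and 133.9 CPM of Dnajc8, stood with or below the 405 min samples.

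Of the 7 refolding partners 2 rose, Dnajb2 and Dnaja4, against 9.99% of all tested genes called higher, and the median was 0.01. The most highly expressed of them showed small values, with -0.32 ± 0.26 for Dnaja1, -0.07 ± 0.17 for Dnaja2, -0.09 ± 0.24 for Dnajb6 and 0.01 for Dnajc7. All were lower in set 2 than in set 1, by -0.71, -0.38, -0.8 and -0.41 in that order. Within set 2, Dnaja1, Dnajb6 and Dnajc7 were higher in every DD 405min sample than in the lone control, and Dnaja2 lay on both sides of it. In set 1, DD 405min replicate 3 lay above the controls for Dnajb6 and Dnajc7 and among them for Dnaja1 and Dnaja2. The small values on all samples therefore do not show that these genes were unchanged. The 3 tested genes of vesicle traffic, Dnajc5, Dnajc13 and Dnajc27, lay between -0.16 and 0.73, and none was called, nor at an unadjusted p under 0.05.

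Between 135 and 405 min 1 member rose and 1 fell, against 2.24% of all tested genes called higher and 2.82% lower. Dnajb2 rose by 1.78 ± 0.43 on the log2 scale with an adjusted p of 0.0309 in edgeR. Dnajc9 fell by 0.71 ± 0.16 with an adjusted p of 0.0209. Dnaja1 and Dnaja2 had log2 differences of -0.64 ± 0.29 and -0.47 ± 0.19, with adjusted p values of 0.176 and 0.141 in edgeR. The samples of these times did not overlap for 9 members on the higher and 9 on the lower side, Dnaja1, Dnaja2 and Dnajc9 among the latter, against 19.2% and 17.6% of all tested genes. All 135 min samples were in set 1 and only DD 405min replicate 3 of the later group was. With that sample alone the values were 1.11 ± 0.53 for Dnajb2 and -0.66 ± 0.18 for Dnajc9, and neither passed the test. The call of Dnajb2 was lost without any 1 of the DD 135min samples or DD 405min replicate 1, 2 or 4 (1.62 to 2.07), and that of Dnajc9 without any 1 of the DD 135min samples or DD 405min replicate 1 or 4 (-0.74 to -0.65).

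Among the HSP70 chaperones themselves, 3 of 12 tested HSP70 and HSP110 genes rose at 135 min and 5 at 405 min, against 0.564% and 9.99% of all tested genes. At 405 min 7 of the 12 values were positive and 5 negative. Hspa8, the constitutive cytosolic HSP70, rose from between 2828 and 5590 CPM in the controls to between 7975 and 8197 CPM at 135 min and between 9712 and 12233 CPM at 405 min, with log2 fold changes of 0.87 ± 0.20 and 1.31 ± 0.19 and adjusted p values of 0.0478 and 0.000467 in edgeR. Hsph1, the cytosolic HSP110, rose by 1.29 ± 0.16 and 1.11 ± 0.15. With the library set as a term the values at 405 min were 1.11 ± 0.16 for Hspa8 and 1.13 ± 0.15 for Hsph1, and both passed the test. The heat-inducible Hspa1b rose by 1.96 ± 0.44 at 135 min and fell by 2.94 ± 0.49 from 135 to 405 min, and its near-identical neighbour Hspa1a makes its counts uncertain. Hspa1b was also lower in set 2 than in set 1, by -1.42, and all 135 min samples were in set 1. The only 405 min sample of set 1, DD 405min replicate 3, was at 29.1 CPM, against 103.5 to 133.9 CPM at 135 min. Of 13 other HSP70 co-chaperones, Bag3 rose at 135 min by 0.87 ± 0.20, and Bag3 (1.5), Hspbp1 (1.43), St13 (0.76), Stip1 (0.66) and Grpel2 (0.66) rose at 405 min. The library sets differed by 1.54 for Hspbp1, 0.49 for Bag3 and 0.46 for St13. With the set as a term 2 of the 13 were called higher at 135 min and 3 at 405 min. Of the 5 genes named for 405 min, Bag3 (1.22 ± 0.14) and St13 (0.52 ± 0.10) passed the test there with the set as a term. Hspbp1 (0.61 ± 0.30), Stip1 (0.58 ± 0.20) and Grpel2 (0.57 ± 0.19) did not. The remaining gene called in that fit at 405 min was outside these 5.

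The J-domain genes left out of the family by its definition were read alongside. Dnajb1, the stress-inducible class B partner of HSP70, was at 18.7, 32.5, 17.2, 18.1 and 13.2 CPM in the controls, at 43.9, 42.7 and 45.5 CPM at 135 min and at 43.2, 35.3, 22.2 and 33.0 CPM at 405 min. It rose by 1.14 ± 0.25 at 135 min and by 0.74 ± 0.24 at 405 min, with adjusted p values of 0.0378 and 0.0369 in edgeR. Dnajb1 was higher in set 2 than in set 1 by 0.67, and its 405 min sample of set 1 (22.2 CPM) lay within the control range. With the set as a term its values were 1.33 ± 0.17 at 135 min, which passed the test, and 0.40 ± 0.17 at 405 min, which did not. Dnajb9 and Dnajc3, both of the ER lumen, had log2 fold changes of 0.16 and 0.29 at 135 min and of -0.39 and 0.30 at 405 min. Neither was called in the fit with group as the only term. Of 7 such genes in the tables, only Dnajb1 was called in that fit at either time. With the set as a term 1 of the 7 was called higher at 405 min, and this was a gene other than Dnajb1. The comparisons of both times share the 5 control samples.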

How the data were processed

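NIH3T3 mRNA-seq libraries from 15 samples were analysed. Per the study's methods, the authors used the DNAnexus platform to align reads to mm9 and to count them per RefSeq gene. The aligner, its version and the strand setting are not given in the sources used here. The labels name a NuGEN Encore Complete kit, the methods describe a manual protocol and in addition a NuGEN kit, and which sample used which is not given. The values deposited by the authors are estimated counts (expected counts) per gene, and 8.7% to 15.6% of them per sample were not whole numbers. The RPKM values deposited by the authors were used only to rank genes, and a standard score and a scaled RPKM column were not used.

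Counts were rounded and tested with edgeR 4.0.16 in R 4.3.3: genes at 1 count or more in all samples (10276), TMM factors, 1 quasi-likelihood fit with group as the only term on all 15 samples, glmQLFTest for each pair of groups, and Benjamini-Hochberg adjustment over all tested genes at 0.05. The tool, threshold and zero-count filter follow the study's methods. CPM used TMM-scaled library sizes. Alternatives were DESeq2 1.42.0, other size factors and count filters, only the compared groups, a replicate block, the library set (divided at a GC slope of 0.15) as a term or separately, a GC offset (loess, span 0.3) and leaving out each sample. Exonic GC came from NCBIM37 with GENCODE vM1, for 95.8% of tested genes. Coordinates of genes are mm9, those of promoters GRCm38.p6. No replicate pair agreed within sampling noise, with chi-square per degree of freedom from 12 to 274.4 over 22 pairs.

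The members and gene lists were chosen with earlier results of these data known, and places in the cell came from textbook knowledge. Values per sample were given for members called in any comparison and for class A.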

Additional observations from a re-analysis of the deposited data

Results flagged for a closer look

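Dnajc24 in control replicate 3 was at 132.8 CPM, and its gap to the nearest of the other 4 controls was 0.754 of the range of the group, above the limit used to mark a sample as standing apart. Of 24 gene and group combinations checked this was the only one, and chance marks about 1 in 20. Control replicate 3 had the fewest counts (6652539). The effects at 135 and 405 min against the same controls differed by a direct test for Dnajb2, with a log2 difference of 1.78, and for Dnajc9, with -0.71. All DD 135min samples belong to library set 1, so for these genes time and set overlap, and with set 1 alone both kept their direction without passing the test.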

How the results depend on the processing

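The counts of called members (0 higher and 1 lower at 135 min, 4 and 4 at 405 min, 1 and 1 between 135 and 405 min) depended on the setting. At 135 min DESeq2, the set term, the GC offset and set 1 alone gave 1 higher, and no filter, only the compared groups, the replicate block and the block with the GC offset gave 0 lower. At 405 min only the compared groups, the block and the set term gave 1 higher and 0 lower, set 1 alone 0 and 0, set 2 alone 0 lower and DESeq2 7 lower. Between 135 and 405 min DESeq2 gave 3 and 2, only the compared groups 7 and 7, the GC offset 3 lower, and no filter, the block, the block with the GC offset, the set term and set 1 alone 0 and 0. Leaving out 1 sample gave 0 to 1 higher and 0 to 1 lower at 135 min, 1 to 6 and 0 to 9 at 405 min, 0 to 3 and 0 to 5 between them, and 0 to 0 at 45 min. Over all genes these ranges were 417 to 2518 and 528 to 2461 at 405 min, and the other settings gave 121 to 1438 and 96 to 1972.

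Values near 0 changed sign for 4 uncalled results. Dnajb12 at 135 min was 0.0 without a filter, 0.15 with the set term and 0.16 in set 1 (-0.09 to 0.16 leaving out 1 sample). Dnajb2 at 135 min ran from -0.19 to 0.43 leaving out 1 sample. Dnajc1 at 135 min was 0.05 under the GC offset and 0.06 when a block was added (-0.21 to 0.05 leaving out 1 sample). Dnajc9 at 405 min was 0.05 with the set term, 0.0 with the GC offset and 0.16 in set 2. The 11 calls kept their direction under every setting, and the causes were not tested. No pairing by replicate number was seen: same-numbered samples had a mean correlation of deviations of -0.11 over 19 pairs, and 2 of 15 samples correlated best with their own number. The difference between the library sets was not removed here and runs across the replicate numbers, so the check cannot exclude pairing. With the replicate block Dnajb2 at 405 min was 2.01 with an adjusted p of 0.0335 in edgeR. Set 2 held no sample at 135 min and gave no value there. The 10 untested members had 0 counts in at least 1 sample. For Dnajb5 and Dnajc12 this was 1 sample, control replicate 3, which had the fewest counts.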
